A study of Caenorhabditis elegans with 27 samples.

Results

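The 8 genes described here belong to the mitochondrial unfolded protein response of Caenorhabditis elegans: the regulators atfs-1, dve-1 and ubl-5, the mitochondrial chaperone genes hsp-6, hsp-60 and dnj-10, and the mitochondrial protease genes clpp-1 and lonp-1. They were listed by name, as genes known for this pathway, with earlier results of these data known, and each was found once among the 46934 gene IDs of the count table. All 8 passed the filter on low counts, which left 19290 genes to be tested. RNA of whole N2 worms, the wild-type strain, was sequenced in 27 libraries, in 9 groups of 3 replicate samples of about 1000 pooled worms each, kept at 20 °C. Worms fed E. coli OP50 together with black rice extract (BRE) were taken at days 6, 11, 15 and 17, and worms fed OP50 alone at days 1, 6, 11, 15 and 17, counted from the larval L4 stage. No BRE group exists at day 1. The labels give extract concentrations of 0, 0.42, 1.04 and 1.67 mg/mL without tying one to the sequenced worms. Nothing in the labels says whether replicates were separate cultures, so p-values measure the spread between these samples.

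In worms, stress inside mitochondria is answered in the nucleus by this response. ATFS-1 is a bZIP transcription factor with a mitochondrial targeting sequence: in healthy cells it is imported into mitochondria and degraded there by the protease LONP-1, and when import falters it enters the nucleus and activates its target genes. DVE-1, a homeobox protein, and UBL-5, a ubiquitin-like protein that binds it, act beside ATFS-1. The mitochondrial HSP70 (hsp-6), the HSP60 chaperonin (hsp-60) and a mitochondrial DnaJ protein (dnj-10) fold imported proteins, and reporters of the first pair are the usual readout of the response. The ATP-dependent protease CLPP-1 cuts damaged matrix proteins into peptides, which in worms take part in the signal. Much of this regulation acts on where ATFS-1 goes and not on how much of its transcript is made, and transcript levels are all that was measured here.

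Library totals ran between 101.61 M and 164.34 M counts. Markers of intestine, body wall muscle, germline and epidermis were detected in every group, in different amounts at different ages, while 17 of 31 sperm markers were at 0 in OP50 worms at day 6. CPM are counts scaled to library size, with TMM factors for single genes and by library totals alone for sums of markers. The summed CPM of 10 intestine markers was 798 to 973 in OP50 worms at day 17, against 3392 to 3931 in OP50 worms at day 1. With TMM scaling, 8 of the 10 were called lower. For 14 body wall muscle markers the sum was 1308 to 1778 at day 17 and 4223 to 5920 at day 1, with 12 called lower. For 15 germline and oocyte markers it was 15327 to 20262 at day 17 and 14061 to 15373 at day 1. Of these, 11 were called lower and 2 higher, with a median log2 difference of -0.63. TMM multiplies values scaled to totals by 1.22 to 1.25 in the day 1 libraries and by 0.80 to 0.95 in those of OP50 at day 17. The higher germline sum at day 17 and the lower calls thus rest on different scalings. The sum over 10 epidermis markers was 9.62 to 14.9 at day 17 and 411 to 456 at day 1. Of these markers 1 was called lower and 0 higher, with a median log2 difference of 0.42, so the typical marker did not fall with the sum. In such bulk samples, fewer cells of a type and less RNA per cell cannot be told apart, and the part of tissue make-up in the differences with age below was not tested. Libraries of the same group also differed in the level of short genes (792 exon bases or fewer) against long genes (1857 or more). In OP50 worms at day 17 this log2 measure was 0.779, 0.010 and 0.474 in the 3 libraries. By sperm transcripts 4 libraries stood apart, with a summed CPM of sperm markers over 10 times the median library. These were replicate 1 of OP50 at day 11 (27.8) and day 17 (68.5) and of BRE at day 11 (44.2), and replicate 3 of OP50 at day 15 (101). Replicate 1 of OP50 at day 1, at 20.4, was not among them. All these sums are small beside those of the intestine, muscle and germline markers. Scaling mattered as well: with library totals alone the median log2 difference of all genes between days 17 and 1 was 0.59, against 0.10 with TMM, so that a gene near 0 with totals alone still lay below the median gene.

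All 8 genes were well covered, with between 812 counts for dve-1 and 185932 for hsp-6 in a library. On a scale of CPM per kilobase of exon, which allows genes to be compared, hsp-6 stood first with a mean of 424 over the 27 libraries. It was followed by hsp-60 at 181, atfs-1 at 70.9, ubl-5 at 62.2, dnj-10 at 51.0, lonp-1 at 45.7, clpp-1 at 35.7 and dve-1 at 3.68. The chaperone genes hsp-6 and hsp-60 thus stood at the top of this order and the regulator dve-1 at its foot. In the WBcel235 annotation, matched by WormBase ID, hsp-6 lies on chromosome V at 4824124 to 4826760 on the minus strand. The other chaperone genes lie on the plus strand of chromosome III, hsp-60 at 1619742 to 1625803 and dnj-10 at 8631165 to 8633565. The annotation places atfs-1 on chromosome V at 14193663 to 14197700 on the plus strand and dve-1 on chromosome X at 427035 to 433812 on the minus strand. On chromosome I, ubl-5 lies at 5607826 to 5608841 and lonp-1 at 10676922 to 10682374, both on the minus strand. For clpp-1, on chromosome II at 10300714 to 10302842 on the minus strand, the span overlaps 4 other genes, among them mdt-22 on the other strand, but shares 0 exon bases with any of them. No other gene of the 8 overlaps another gene.

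**Figure D1:**
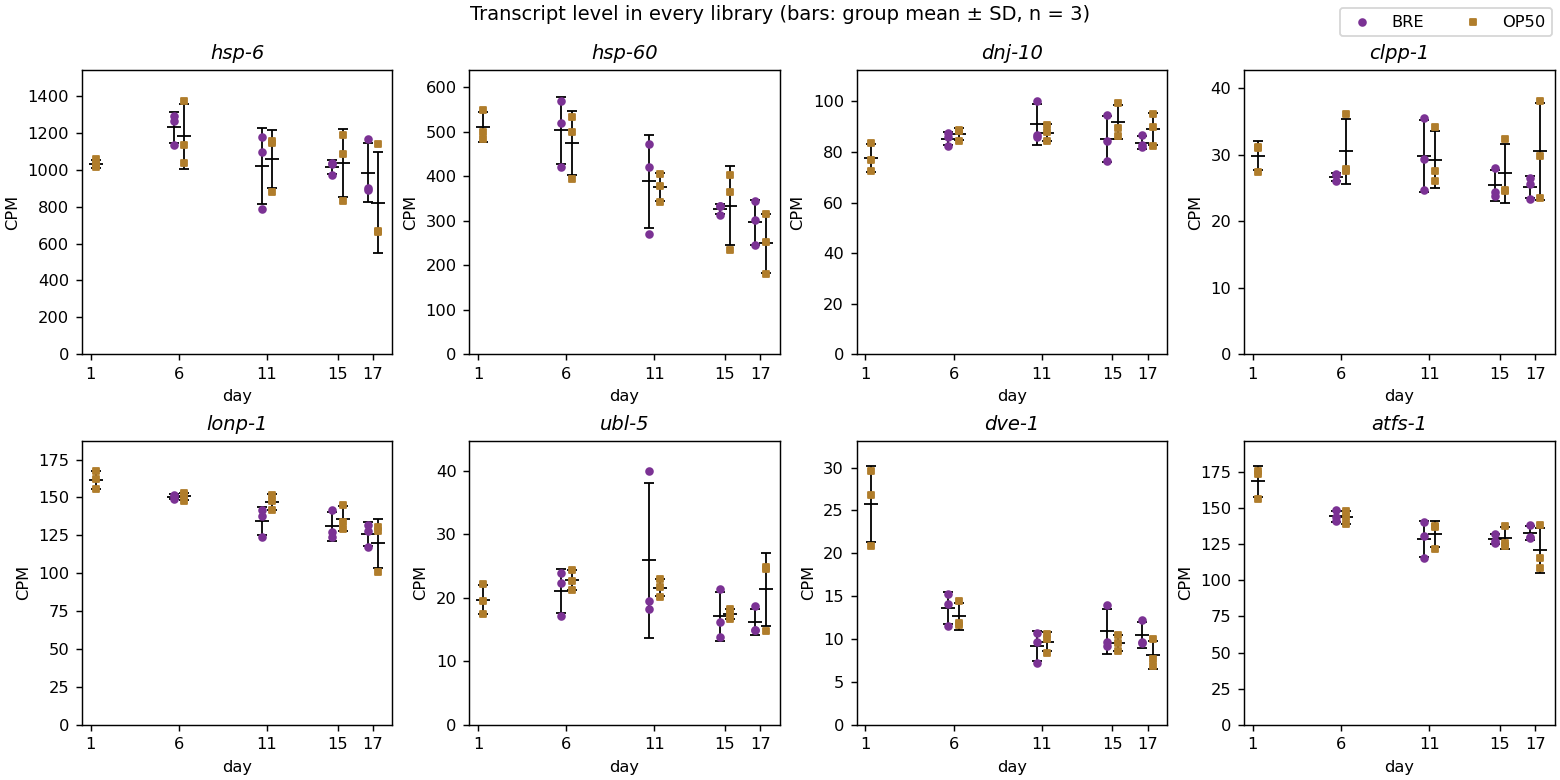
Transcript level of each gene in CPM (vertical axis, starting at 0) by day (horizontal axis), with BRE libraries as purple circles left of each day and OP50 libraries as brown squares right of it; black bars are the group mean ± SD of 3 libraries. The points of dve-1 at day 1 (20.9 to 29.6 CPM) lie above every later library, hsp-60 declines over the days in both diets, and at each later day the diets overlap except for clpp-1 at day 6.

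The regulator that changed most with age was dve-1. Its 3 libraries held 6.82, 9.96 and 7.63 CPM in OP50 worms at day 17, against 29.6, 26.8 and 20.9 CPM in OP50 worms at day 1. It was already low at day 6, at 11.6, 11.8 and 14.5 CPM, and no library of a later day, on either diet, reached the lowest library of day 1. How many of all genes do so was not counted. In edgeR's quasi-likelihood test against day 1, dve-1 fell by 1.03 on the log2 scale at day 6 (SE 0.197, adjusted p = 0.00040), and it was lower by a log2 difference of -1.41 at day 11 (adjusted p = 9.0e-06), -1.43 at day 15 (adjusted p = 4.1e-06) and -1.66 at day 17 (SE 0.201, adjusted p = 4.4e-07). The fold at day 17 was 0.316 (95% interval 0.237 to 0.421). These 4 comparisons share the day 1 libraries. The fall at each day was called under every alternative tried, and scaling to total counts left a negative value at each.

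The transcript of the central factor, atfs-1, changed much less. OP50 worms held 109, 138 and 116 CPM at day 17, against 176, 174 and 156 CPM at day 1, with no overlap. At days 6, 11 and 15 the OP50 means were 144 ± 4.46, 132 ± 9.2 and 129 ± 7.55 CPM (SD, n = 3 each). Relative to day 1 atfs-1 stood at a log2 difference of -0.23 on day 6 (adjusted p = 0.066, not called), -0.35 at day 11 (adjusted p = 0.0060), -0.38 at day 15 (adjusted p = 0.0022) and -0.48 at day 17 (SE 0.0951, adjusted p = 0.00021). These falls depend on the scaling: with library totals alone, atfs-1 stood at -0.03 at day 11, at 0.05 at day 15 and at -0.0003 at day 17, none called. Without the libraries rich in sperm transcripts atfs-1 stood at -0.25 on day 11 (adjusted p = 0.12). Without day 1 replicate 1 or replicate 2 of OP50 the call at day 11 was also lost (-0.30, adjusted p = 0.087, and -0.31, adjusted p = 0.077), and so was the call at day 15 (-0.30, adjusted p = 0.067, and -0.31, adjusted p = 0.059, and -0.28, adjusted p = 0.083 without day 15 replicate 1), while the call at day 17 held with any 1 library left out.

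The third regulator, ubl-5, showed no called change with age. It held 24.5, 14.7 and 24.9 CPM in OP50 worms at day 17, against 17.5, 19.5 and 22.1 CPM at day 1. The day 17 libraries thus lay on both sides of those of day 1. The log2 difference was 0.21, 0.13 and -0.18 for days 6, 11 and 15, and 0.12 at day 17 (95% interval -0.38 to 0.61).

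Of the chaperones, hsp-60 fell with age and hsp-6 changed less. The hsp-60 level was 253, 314 and 181 CPM in OP50 worms at day 17, against 549, 500 and 484 CPM at day 1. The level at day 17 lay under every library of day 1, and so did those of day 11 (406, 379 and 342 CPM) and day 15 (402, 365 and 233 CPM). Against day 1 hsp-60 stood at a log2 difference of -0.11 on day 6 (adjusted p = 0.73), -0.44 at day 11 (adjusted p = 0.11), -0.61 at day 15 (SE 0.212, adjusted p = 0.021) and -1.04 at day 17 (SE 0.213, adjusted p = 0.00032). The direction at days 15 and 17 was the same under all scalings. The call at day 15 was lost with totals alone (-0.20, adjusted p = 0.32) and without day 1 replicate 1 (-0.51), day 1 replicate 2 (-0.59), day 1 replicate 3 (-0.58) or day 15 replicate 3 (-0.42, adjusted p = 0.17), and it stood at -0.37 without the libraries rich in sperm transcripts. The call at day 17 held in each of the alternatives.

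The partner gene hsp-6 held 666, 1142 and 662 CPM in OP50 worms at day 17, against 1014, 1060 and 1025 CPM at day 1. At day 17 a pair of libraries lay well below day 1 and the remaining one above it. None of the 4 comparisons with day 1 was called for hsp-6, whose log2 differences were 0.20, 0.04 and 0.00 for days 6, 11 and 15 and -0.33 for day 17 (95% interval -0.72 to 0.07, adjusted p = 0.15). Without day 17 replicate 2 the last value was -0.65 and was called (adjusted p = 0.0076). With library totals alone hsp-6 stood at 0.42 on day 15 and was called higher (adjusted p = 0.046). The co-chaperone gene dnj-10 was the only one of the 8 with a called rise under TMM scaling. It held 99.2, 89.5 and 86.4 CPM in OP50 worms at day 15, against 72.5, 76.9 and 83.4 CPM at day 1, a log2 difference of 0.24 (SE 0.0941, adjusted p = 0.040). That call was lost without day 1 replicate 1 (0.24), day 15 replicate 1 (0.25) or day 15 replicate 2 (0.24), with adjusted p between 0.051 and 0.066. It was also lost with no filter (0.25, adjusted p = 0.083) and with only the groups compared (0.25, adjusted p = 0.076). At days 6, 11 and 17 the log2 difference of dnj-10 was 0.17, 0.17 and 0.20 and was not called. Without day 1 replicate 3 these were called, at 0.27, 0.28 and 0.33, and at day 17 also without day 17 replicate 3, at 0.28. The day 17 value was called as well by DESeq2 (0.25, adjusted p = 0.011) and with its size factors in edgeR (0.25, adjusted p = 0.023). Scaled to library totals alone, dnj-10 was called higher at all 4 days, at 0.33, 0.50, 0.67 and 0.68.

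The proteases differed from each other. The LON protease gene lonp-1 held 130, 128 and 101 CPM in OP50 worms at day 17, against 155, 162 and 167 CPM at day 1. All later libraries on either diet lay below the lowest of day 1, a pattern not counted over all genes. Its log2 difference from day 1 was -0.10 for day 6 and -0.14 for day 11 (neither called), -0.25 at day 15 (adjusted p = 0.033) and -0.43 at day 17 (SE 0.0944, adjusted p = 0.00055), but with library totals alone the sign turned, to 0.18 at day 15 and 0.04 at day 17. The call at day 15 was lost when any 1 of the 6 libraries was left out (-0.15 to -0.25, adjusted p between 0.091 and 0.32), and lonp-1 stood at -0.17 without those rich in sperm transcripts. It was also lost with DESeq2 (-0.21, adjusted p = 0.086) and with its size factors in edgeR (-0.21, adjusted p = 0.091). The same held with no filter (-0.24, adjusted p = 0.096) and with only the groups compared (-0.24, adjusted p = 0.059). The call at day 17 held with any 1 library of days 1 and 17 left out, and was lost when only the libraries of days 1 and 17 were fitted (-0.40, adjusted p = 0.059). The CLP protease gene clpp-1 held 38.1, 23.5 and 29.7 CPM in OP50 worms at day 17, against 27.4, 31.2 and 31.1 CPM at day 1, a log2 difference of 0.03 (95% interval -0.32 to 0.38). Replicate 1 of day 17 lay above and replicate 2 below every library of day 1. At days 6, 11 and 15 clpp-1 stood at 0.03, -0.03 and -0.13, none called. Scaled to totals alone, clpp-1 stood at 0.51 on day 17 and was called higher (adjusted p = 0.013).

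**Figure D2:**
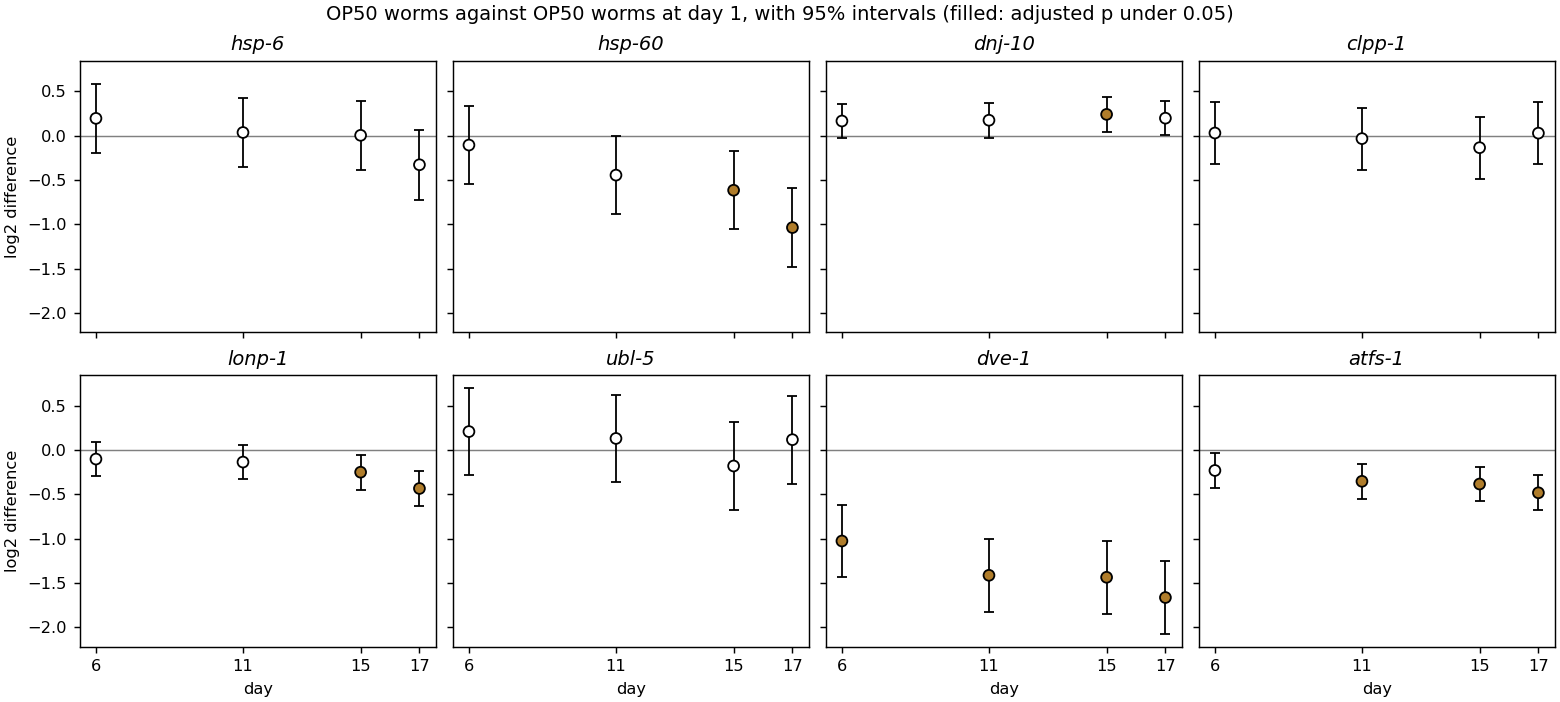
Log2 difference of each gene between OP50 worms at days 6, 11, 15 and 17 (horizontal axis) and OP50 worms at day 1, with 95% intervals; filled points passed an adjusted p of 0.05. The points of dve-1 are filled at all 4 days (-1.03 to -1.66), those of hsp-60 and lonp-1 at days 15 and 17, those of atfs-1 from day 11, and that of dnj-10 at day 15. All panels share the day 1 libraries.

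In all, 1 of the 8 genes was called at day 6 against day 1, dve-1 as lower, where 33% of all genes tested were called, 14% higher and 19% lower. At day 11, 2 of the 8 were called lower, where 35.8% were called, 19.2% higher and 16.6% lower. At day 15, 5 of the 8 were called (1 higher and 4 lower), against 47.2% of all genes, 26.1% higher and 21.1% lower. At day 17, 4 of the 8 were called, all lower, against 53.9% of all genes, 24.8% lower and 29.1% higher. The median log2 difference of the 8 genes at day 17 was -0.38, and that of all genes tested 0.10. Libraries can also be compared without a test. At day 6, lonp-1, dve-1 and atfs-1 lay below day 1 in every library, as 25.1% of all genes did, and dnj-10 above, as 21.5% did. At day 11, hsp-60, lonp-1, dve-1 and atfs-1 lay below in every library (22.9% of all genes) and dnj-10 above (26.3%). The same 5 genes did so at day 15 (26.6% below and 31.1% above), and the same 4 lay below at day 17 (26.5%, with 31.2% of all genes above). The called share of the 8 genes was below that of all genes at days 6 and 11 and near it at days 15 and 17, and all the calls but that of dnj-10 were downward.

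Between days 6 and 17, both diets could be followed. In OP50 worms 5 of the 8 genes were called lower at day 17 than at day 6, where 23.5% of all genes were called lower, 32.5% higher and 56% in either direction. These were hsp-60 (-0.93, SE 0.213, adjusted p = 0.00093), lonp-1 (-0.33, adjusted p = 0.0053), dve-1 (-0.64, adjusted p = 0.0093), hsp-6 (-0.52, adjusted p = 0.024) and atfs-1 (-0.25, adjusted p = 0.029). The sign of atfs-1 turned with library totals alone (0.07), where only hsp-60 kept its call among these 5. With that scaling dnj-10 was called higher (0.35, adjusted p = 0.0085). The call of atfs-1 was also lost with DESeq2 (-0.21, adjusted p = 0.075), with its size factors in edgeR (-0.21, adjusted p = 0.081) and with no filter (-0.28, adjusted p = 0.055). In BRE worms 2 of the 8 were called lower at day 17 than at day 6, where 22% of all genes were called lower, 32.7% higher and 54.8% in either direction: hsp-60 (-0.76, SE 0.212, adjusted p = 0.0045) and lonp-1 (-0.26, adjusted p = 0.024), the second at 0.002 with totals alone. For hsp-60 the BRE libraries held 301, 345 and 244 CPM at day 17, against 570, 519 and 421 CPM at day 6. Of the genes without a call, dnj-10, clpp-1 and ubl-5 stood at 0.03, -0.002 and -0.09 in OP50 worms. In BRE worms hsp-6 stood at -0.32 (adjusted p = 0.16), dve-1 at -0.38 (adjusted p = 0.10), ubl-5 at -0.38, atfs-1 at -0.12, clpp-1 at -0.09 and dnj-10 at -0.03. Left-out libraries ended several of these calls. In OP50 worms that of hsp-6 was lost without day 6 replicate 2 (-0.35), day 6 replicate 3 (-0.53), day 17 replicate 1 (-0.34) or day 17 replicate 3 (-0.38), that of dve-1 without day 6 replicate 3 (-0.51) or day 17 replicate 1 (-0.47), that of lonp-1 without day 17 replicate 3 (-0.21), and that of atfs-1 in all cases but day 17 replicate 2 (-0.12 to -0.25). Without the libraries rich in sperm transcripts those of hsp-6 (-0.34), dve-1 (-0.47) and atfs-1 (-0.12) were lost. In BRE worms that of lonp-1 was lost with any 1 of the 6 libraries left out (-0.20 to -0.29). The calls of hsp-60 held on both diets. Without a test, 4 of the 8 genes lay lower in every OP50 library of day 17 than of day 6 (hsp-60, lonp-1, dve-1 and atfs-1), as 24.7% of all genes did (33.8% lay higher), and 3 of the 8 in BRE worms (hsp-60, lonp-1 and atfs-1), as 30.1% did (39.8% lay higher).

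Whether the change between days 6 and 17 differed between the diets was tested directly. None of the 8 genes was called in this test, and 0% of all genes tested were, with 353 genes at an unadjusted p under 0.05 and 6 called by DESeq2. The difference, BRE minus OP50, was between -0.29 for ubl-5 and 0.25 for dve-1 on the log2 scale. Calls of hsp-6, dve-1 and atfs-1 on OP50 and not on BRE are therefore not shown to be a difference between the diets.

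The main question of the design is whether the extract moved these transcripts, and no such change was called for any of the 8 genes on any day. At day 6 none was called, where 0.0156% of all genes tested were. At day 11 none was called (0.0104% of all genes), nor at day 15 (0% of all genes, 546 at an unadjusted p under 0.05, 59 called by DESeq2) or at day 17 (0% of all genes, 1569 at an unadjusted p under 0.05, 3 called by DESeq2). Averaged over the 4 days none of the 8 was called, and 0.0467% of all genes were, 0.0415% higher and 0.00518% lower. DESeq2 called none of the 8 in any comparison between the diets either. The log2 differences ran between -0.19 for clpp-1 and 0.11 for dve-1 at day 6, between -0.13 for lonp-1 and 0.26 for ubl-5 at day 11, and between -0.11 for dnj-10 and 0.20 for dve-1 at day 15.

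For hsp-6, the usual readout, BRE libraries held 901, 1170 and 889 CPM at day 17, against 666, 1142 and 662 CPM in OP50 libraries of that day. The ranges overlapped, with a pair of OP50 libraries below all BRE libraries. The log2 difference was 0.26 (SE 0.190, 95% interval -0.13 to 0.65, adjusted p = 0.73). Averaged over days 6 to 17 it was 0.06 for hsp-6 (95% interval -0.14 to 0.26) and 0.09 for hsp-60 (-0.13 to 0.31), which as folds are 0.909 to 1.19 for hsp-6 and 0.914 to 1.24 for hsp-60. The narrowest intervals of the averaged difference were those of dnj-10 (-0.14 to 0.05), lonp-1 (-0.13 to 0.07) and atfs-1 (-0.07 to 0.12).

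The widest gaps between the diets were at day 17 and fell on dve-1, clpp-1 and ubl-5. For dve-1, BRE libraries held 12.2, 9.61 and 9.52 CPM and OP50 libraries 6.82, 9.96 and 7.63 CPM, with 1 OP50 library inside the BRE range, a log2 difference of 0.36 (95% interval -0.05 to 0.76, unadjusted p = 0.081, adjusted p = 0.63). For ubl-5, BRE libraries held 15.0, 15.0 and 18.6 CPM and OP50 libraries 24.5, 14.7 and 24.9 CPM, a log2 difference of -0.40 (95% interval -0.90 to 0.09, adjusted p = 0.66). For clpp-1 the log2 difference at day 17 was -0.28 (95% interval -0.63 to 0.07, adjusted p = 0.66). With the level of short against long genes as a covariate, an alternative added after these values were seen, the same differences were 0.09 for dve-1, 0.07 for ubl-5, 0.08 for clpp-1 and -0.08 for hsp-6. That level itself differed between the diets at day 17, at -0.168, -0.077 and 0.066 in BRE libraries and 0.779, 0.010 and 0.474 in OP50 libraries.

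At day 6 the libraries of clpp-1 did not overlap: BRE worms held 26.0, 27.1 and 26.9 CPM and OP50 worms 36.2, 27.5 and 27.8 CPM. All 3 BRE values lay below, by little except against OP50 replicate 1, and 4.52% of all genes tested were likewise lower in every BRE library of that day, with 1.89% higher. The log2 difference was -0.19 (95% interval -0.54 to 0.16). No other gene of the 8 was separated between the diets on any day, where of all genes 1.85% lay higher and 2.45% lower in every BRE library at day 11, 3.82% and 1.87% at day 15, and 7.64% and 5.42% at day 17. A joint test of whether the extract's difference varied between the 4 days called none of the 8, and 0% of all genes tested (579 at an unadjusted p under 0.05, 6 called by DESeq2).

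**Figure D3:**
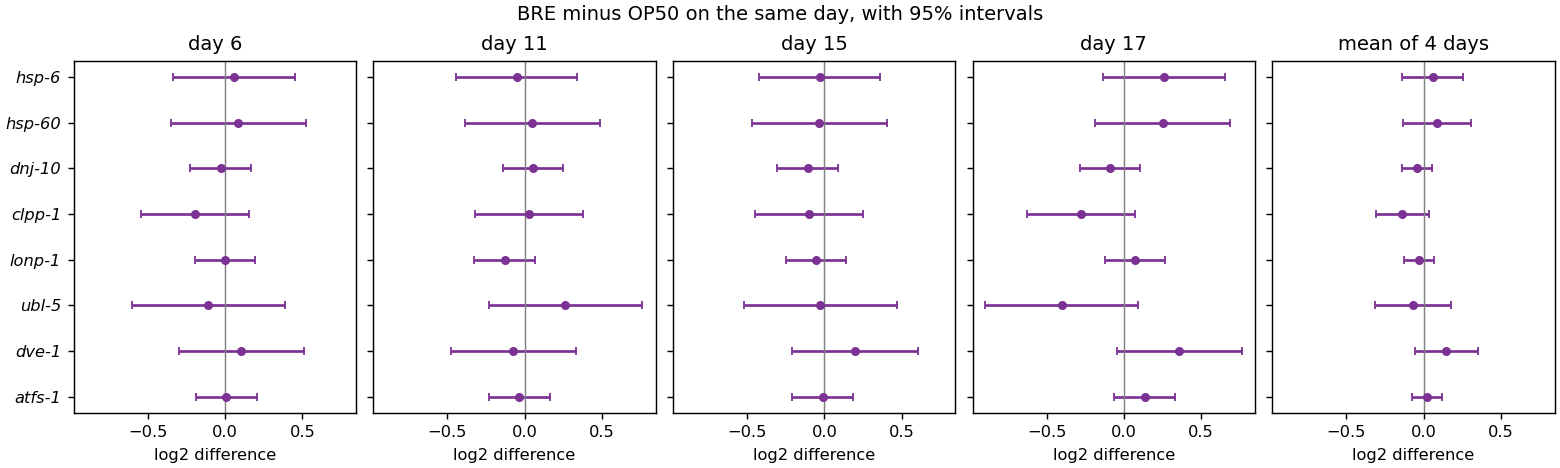
Log2 difference between BRE and OP50 worms of the same day for the 8 genes (rows), with 95% intervals, at days 6, 11, 15 and 17 and averaged over the 4 days (panels). Every interval includes 0; the points at day 17 range between -0.40 for ubl-5 and 0.36 for dve-1, and those of the average between -0.14 for clpp-1 and 0.15 for dve-1.

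The spread within groups was itself patterned. Across the 27 libraries, each set against the mean of its own group, clpp-1 and ubl-5, the shortest of the 8 genes at 791 and 327 exon bases, moved up and down with the level of short against long genes (Pearson r = 0.90 and 0.78). The long genes atfs-1 (1926 exon bases), hsp-6 (2460) and dve-1 (3319) moved against it (r = -0.84, -0.80 and -0.65). For hsp-60 (2121), lonp-1 (3059) and dnj-10 (1697) r was -0.34, -0.25 and 0.31. By their length clpp-1 and ubl-5 belong to the short set that defines this measure, and hsp-6, hsp-60, lonp-1, dve-1 and atfs-1 to its long set. The signs of r are therefore partly favoured by how the measure was built. No r was computed for other genes, so these values are not set apart from those of other short or long genes. These are descriptions over libraries that differ in depth, and length alone does not order the genes, since lonp-1 is the second longest of the 8. Replicate 1 of OP50 had the highest clpp-1 of its group at days 6, 11, 15 and 17, at 36.2, 34.1, 32.3 and 38.1 CPM, and the highest short-gene level of its group at days 6, 11 and 17. At day 15 that level was 0.175 in replicate 1 and 0.193 in replicate 3. In BRE worms at day 11, replicate 3 stood apart with 39.98 CPM of ubl-5, against 18.2 and 19.5 CPM in the other libraries of the group, and with the lowest hsp-6 of the group at 788 CPM, against 1098 and 1179 CPM. Its short-gene level was 0.716.

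**Figure D4:**
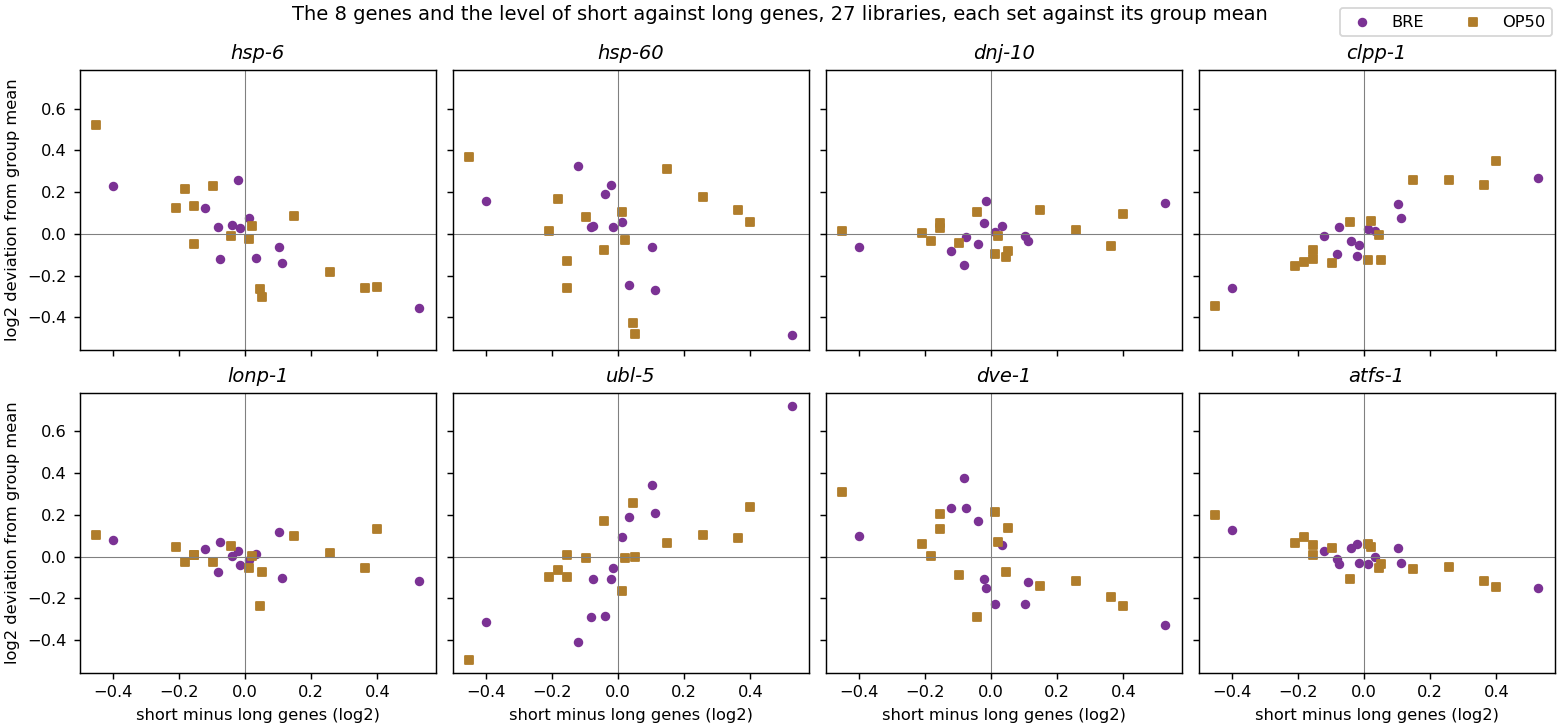
Each point is 1 of the 27 libraries: the horizontal axis is its level of short against long genes and the vertical axis the level of the named gene, both as log2 deviations from the mean of its group (purple circles BRE, brown squares OP50). The points rise together for clpp-1 (r = 0.90) and ubl-5 (r = 0.78), fall for atfs-1 (r = -0.84) and hsp-6 (r = -0.80), and show little slope for lonp-1 (r = -0.25). By length clpp-1 and ubl-5 are in the short set of the measure, and atfs-1, hsp-6 and lonp-1 in the long set.

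The same covariate bears on the comparisons with age, but it was computed from these same counts and itself differed with age. In OP50 worms it was -0.175, -0.173 and -0.33 at day 1, against 0.779, 0.010 and 0.474 at day 17. A fit with it may thus lose or gain a part of the change with age, and its values are not cleaner estimates. With it in the fit, OP50 worms at day 17 against day 1 had called values of -0.45 for clpp-1 (adjusted p = 0.0066) and -0.52 for ubl-5 (adjusted p = 0.045), where the fit without it gave 0.03 and 0.12, and totals alone gave 0.51 (called) and 0.61 (adjusted p = 0.051), so the direction of both genes turned with the setting. The falls of dve-1 (-1.31), hsp-60 (-0.79), lonp-1 (-0.36) and atfs-1 (-0.28) at day 17 remained called. For hsp-6 the value at day 17 was then 0.15 against day 1 and -0.10 against day 6, neither called. At day 15 the calls of hsp-60 (-0.49, adjusted p = 0.057), dnj-10 (0.21, adjusted p = 0.056) and lonp-1 (-0.21, adjusted p = 0.051) were lost with it, while clpp-1 (-0.36, adjusted p = 0.0092) and ubl-5 (-0.47, adjusted p = 0.030) were called lower. Between days 17 and 6 in OP50 worms the calls of dve-1 (-0.32, adjusted p = 0.17) and atfs-1 (-0.08, adjusted p = 0.40) were lost with it, and clpp-1 (-0.41) and ubl-5 (-0.65) were called lower. In BRE worms clpp-1 (-0.26, adjusted p = 0.038) and ubl-5 (-0.61, adjusted p = 0.0045) were called lower between the same days.

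Within a library hsp-6 and hsp-60 tended to deviate in the same direction from their group mean (r = 0.68 over 27 libraries), and so did hsp-6 and atfs-1 (r = 0.82), clpp-1 and ubl-5 (r = 0.70), and hsp-60 and lonp-1 (r = 0.60). The genes clpp-1 and atfs-1 deviated in opposite directions (r = -0.82). Of these genes, clpp-1 and ubl-5 (r = 0.90 and 0.78) and atfs-1 and hsp-6 (r = -0.84 and -0.80) also followed the level of short against long genes. The part of that level in the pairs was not tested. No r was computed for pairs of other genes, so these values are not set apart from theirs. Over the libraries as a whole, age included, the closest pair of the 8 was dve-1 and atfs-1 (r = 0.89).

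The ratio of hsp-6 to hsp-60 counts needs no scaling between libraries, but other differences between libraries can enter it. Within groups hsp-6 followed the level of short against long genes at r = -0.80 and hsp-60 at r = -0.34. In OP50 worms replicate 1 had the lowest ratio of its group at every day. The ratio was 2.64, 3.63 and 3.66 in OP50 worms at day 17, a mean of 3.31 ± 0.584 (SD, n = 3), against 1.85, 2.12 and 2.12 in OP50 worms at day 1, a mean of 2.03 ± 0.157. The means at days 6, 11 and 15 in OP50 worms were 2.53 ± 0.512, 2.86 ± 0.624 and 3.17 ± 0.434. No library of days 11, 15 or 17 overlapped those of day 1, and in each of these comparisons the exact two-sided permutation test gave p = 0.1, the smallest that 3 libraries against 3 allow. In BRE worms the ratio was 3.34 ± 0.328 at day 17 and 2.47 ± 0.234 at day 6, again without overlap (exact permutation p = 0.1). In OP50 worms the libraries of days 17 and 6 overlapped (log2 difference of the ratio 0.393, exact permutation p = 0.3). Between the diets the ratio differed by at most 0.07 on the log2 scale on any day, with exact permutation p between 0.7 and 1.0. The ratio shows unequal change of the pair, not that either stayed level.

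**Figure D5:**
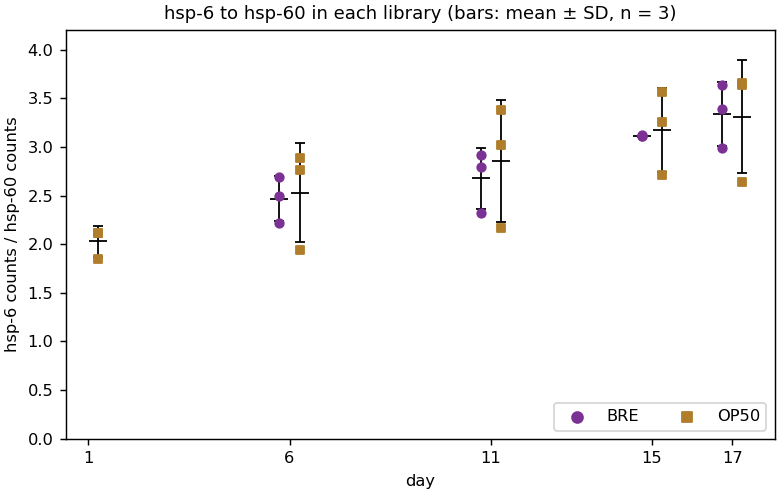
Ratio of hsp-6 counts to hsp-60 counts in each library (vertical axis, starting at 0) by day (horizontal axis), with BRE as purple circles left of each day and OP50 as brown squares right of it; bars are the mean ± SD of 3 libraries. The OP50 mean is 2.03 at day 1 and 3.31 at day 17, and the BRE and OP50 points of each later day overlap.

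Other genes of the pathway were followed as lists chosen by function. Of 15 regulators of the response, 8 were called lower and 1 higher in OP50 worms at day 17 than at day 1 (53.3% and 6.67% of the list, against 24.8% and 29.1% of all genes tested), with a median of -0.48. The gene with the largest fall was zip-3, which encodes a bZIP factor known to repress the response, at 11.1 CPM at day 17 and 57.0 CPM at day 1 (log2 difference -2.36, SE 0.237, adjusted p = 2.9e-08). The receptor gene fshr-1 (-1.65, adjusted p = 9.7e-07), the sphingosine kinase gene sphk-1 (-1.08, adjusted p = 5.4e-07) and haf-1, which encodes a mitochondrial peptide transporter (-1.07, adjusted p = 5.1e-05), were also lower. The bZIP factor gene cebp-1 was the 1 that rose, to 131 CPM at day 17, against 29.5 CPM at day 1 (2.15, SE 0.304, adjusted p = 3.9e-06). With library totals alone these 5 genes kept their signs, but the list stood at 5 higher and 4 lower with a median of 0.005, and with the short-gene covariate at 2 higher and 4 lower with a median of -0.10. Without the libraries rich in sperm transcripts it also stood at 2 higher and 4 lower, with a median of -0.28. The chromatin regulator genes lin-65 and jmjd-1.2 were at -0.09 and -0.12, neither called. The histone demethylase gene jmjd-3.1 rose between days 6 and 17 on both diets (1.79 in BRE worms, adjusted p = 0.00014, and 1.51 in OP50 worms, adjusted p = 0.00072).

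Of 15 mitochondrial chaperone partners and proteases, 6 were called lower and 1 higher at day 17 against day 1 in OP50 worms (40% and 6.67%, against 24.8% and 29.1% of all genes), with a median of -0.22. Both subunit genes of the mitochondrial processing peptidase were lower, mppa-1 (-0.80, adjusted p = 1.4e-05, and -0.33 with totals alone) and mppb-1 (-0.66, adjusted p = 2.5e-05, and -0.18), as was hsp-75, the mitochondrial HSP90 gene (-0.49, adjusted p = 0.00014, and -0.01). With library totals alone this list stood at 6 higher and 1 lower, with a median of 0.25. Of 15 tested genes of protein import, 4 were lower and 2 higher (26.7% and 13.3%, the first close to the 24.8% of all genes), with tomm-70 at -0.63 (adjusted p = 2.2e-06) and timm-23 at 0.71 (adjusted p = 0.0037). The list's median was -0.08, 0.41 with library totals alone (8 higher) and -0.50 with the short-gene covariate (11 lower).

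Of 34 tested nuclear genes of the respiratory chain, 22 were called lower and none higher at day 17 against day 1 in OP50 worms (64.7% lower, against 24.8% of all genes), with a median of -0.63. Named by the lowest adjusted p were gas-1, a complex I subunit gene (-1.34, adjusted p = 5.4e-10), the complex III subunit genes ucr-2.2 (-1.49) and ucr-2.1 (-1.42), and sdha-1 of complex II (-1.51). With library totals alone 9 were lower and none higher, and with the short-gene covariate 28 were lower and none higher. Of 11 tested genes on the mitochondrial genome 6 were lower (54.5%), and with library totals alone 1 was. Of 70 mitochondrial ribosome genes 6 were called higher and 4 lower, a split that turned to 46 and 0 with library totals alone and to 0 and 30 with the short-gene covariate, so no direction can be given for them. Of 11 genes of mitochondrial dynamics and mitophagy, 3 were higher and 2 lower (27.3% and 18.2%, against 29.1% and 24.8% of all genes), with the autophagy gene bec-1 at 1.24 (adjusted p = 1.4e-08) and the mitophagy kinase gene pink-1 at -0.75 (adjusted p = 1.1e-05).

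Chaperones of the same families outside mitochondria were listed as well. Of 20 such genes of the cytosol and endoplasmic reticulum 11 were called lower and 1 higher at day 6 against day 1 (55% and 5% of the list, against 19% and 14% of all genes), with a median of -0.44. At day 17 against day 6 in OP50 worms, 2 were higher and none lower (10% and 0%, against 32.5% and 23.5% of all genes). Whether this list differs from the 8 genes was not tested. The subunit gene cct-2 of the cytosolic chaperonin was at 438 CPM at day 6 and 661 CPM at day 1 (-0.60, adjusted p = 0.0040), and hsp-90 at 2686 CPM and 3963 CPM (-0.56, adjusted p = 0.00015). The heat-inducible gene hsp-70 rose, with 46.9 CPM at day 6 and 0.843 CPM at day 1 (5.80, SE 1.15, adjusted p = 0.00052). The near-identical pair F44E5.4 and F44E5.5, of the same family, rose between days 6 and 17 (3.74, adjusted p = 0.0038, and 3.71, adjusted p = 0.0037, in OP50 worms), and reads of the pair may have been split between them. With library totals alone 7 of the 20 were still lower at day 6. In no comparison between BRE and OP50 was any gene of these lists called.

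The 5 genes whose levels ran most alike with hsp-6 over the 27 libraries, out of 5552 genes with a symbol and a mean of at least 5 CPM, were apd-3 (r = 0.92), cit-1.1 (r = 0.91), cpb-3 (r = 0.91), ing-3 (r = 0.91) and gfm-1 (r = 0.91). For atfs-1 they were agl-1 (r = 0.95), acly-1 (r = 0.94), aak-2 (r = 0.94), mop-25.1 (r = 0.94) and maph-1.3 (r = 0.93). None of the 8 genes was allowed in these rankings, and the libraries differ in diet, day and depth.

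In the order of the 9 group means, a group stood clear of the next one, with all 3 libraries above, only at a few steps. For dve-1 and lonp-1 that step was between OP50 at day 1 and the next group, and for atfs-1 it occurred there and once more, between OP50 at day 6 and BRE at day 17. For hsp-6, hsp-60, dnj-10, clpp-1 and ubl-5 no neighbours in the order were separated. The share of all genes with such steps was not counted, so the steps are not set apart from those of other genes. Of all genes tested, 46.6% did not overlap between OP50 days 6 and 1, and 57.7% between OP50 days 17 and 1. For hsp-6 the order of means began with BRE at day 6 (1231 ± 86.0 CPM) and OP50 at day 6 (1183 ± 176 CPM) and ended with BRE at day 17 (986 ± 159 CPM) and OP50 at day 17 (824 ± 276 CPM, SD, n = 3 each).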

How the data were processed

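Whole-worm RNA was sequenced in 27 libraries. The deposited table holds the authors' raw counts per gene, with no normalization. Quality control with FastQC, trimming with Trimmomatic, HISAT2 2.0.5, SAMtools 1.7 and the counter featureCounts are named in the submitters' processing notes. Settings, strand use and genome build: not given in the sources used here. Coordinates and exon lengths come from the WBcel235 annotation. Counts were analysed in R 4.3.3 with edgeR 4.0.16: TMM scaling, filterByExpr with a minimum count of 10, and a quasi-likelihood model with 1 mean for each of the 9 groups, fitted to all libraries, with 18 residual degrees of freedom per gene. Tests were adjusted by Benjamini-Hochberg over all 19290 genes of a comparison and called at an adjusted p under 0.05. Each SE was computed from the log2 difference and the square root of its F statistic, and 95% intervals use the t distribution. CPM values of genes are scaled by TMM, summed marker levels by library totals alone, and log2 CPM used for correlations has a prior count of 2. The fit was tested on simulated data.

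The 8 genes, the lists and the tissue markers were chosen with earlier results of these data known. All 8 genes were named in every comparison. Of a list, at most 4 called genes per comparison were named, by adjusted p, and any regulator or import gene. Alternatives were DESeq2 1.42.0, its size factors in edgeR, totals alone, no filter, only the groups compared, a replicate block, and each library left out. A pair was added after the data were seen: the short-gene covariate, and leaving out libraries rich in sperm transcripts.

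Whether equal replicate numbers pair libraries was checked by how far their deviations from group means correlate. Between the diets all 3 values were over 0.1 at day 6 (0.22, 0.19 and 0.31) and day 11 (0.50, 0.41 and 0.22) and not at days 15 and 17. Between days 6 and 17 all were over 0.1 in OP50 worms (0.26, 0.18 and 0.14) and BRE worms (0.15, 0.15 and 0.26), and between day 1 and later days they were not. In the paired comparisons the block changed no call of the 8 genes.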

Additional observations from a re-analysis of the deposited data

How the results depend on the processing

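No comparison between the diets called any of the 8 genes under any alternative. For the comparisons with age, the number called out of 8 moved as follows. Scaling to totals alone, which moved the median of all genes at day 17 against day 1 to 0.59, against 0.10 with TMM, gave 2 at day 6, 3 at day 15 and 2 in OP50 worms and 1 in BRE worms for day 17 against day 6, and it turned signs: lonp-1 stood at 0.1772 at day 15, 0.0375 at day 17 and 0.0018 in BRE worms for day 17 against day 6, and atfs-1 at 0.0472 at day 15 and 0.0684 in OP50 worms for day 17 against day 6. No filter gave 3 at day 15. Fitting only the groups compared gave 3 at day 11, 3 at day 15 and 1 for OP50 day 17 against day 6, where fewer samples estimate the spread. Leaving out the 4 libraries rich in sperm transcripts gave 1 at day 11, 3 at day 15 and 2 for OP50 day 17 against day 6. The short-gene covariate gave 2 at day 6, 6 at day 17 and 4 for BRE day 17 against day 6, and turned clpp-1 to -0.4488 and ubl-5 to -0.5189 at day 17. Between day 1 and later days the replicate numbers are only numbers; with them as a replicate block 2 genes were called at day 6, 3 at day 11 (hsp-60 at -0.45, adjusted p = 0.0092) and 5 at day 17 (hsp-6 at -0.36, adjusted p = 0.039). With 1 library left out the counts ran from 1 to 2 at day 6, 1 to 3 at day 11, 1 to 3 at day 15, 4 to 5 at day 17, 2 to 5 for OP50 day 17 against day 6, and were 1 for BRE day 17 against day 6. DESeq2 called 5 at day 17 and 4 at day 15. The cause of these moves was not tested where none is given. Over all genes DESeq2 called more between the diets than edgeR: 13 against 3 at day 6, 7 against 2 at day 11, 28 against 9 in the average.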
